A study of Mus musculus with 16 samples.

Results

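The Smad family was followed through the cell types of the mouse thoracic aorta. Its 8 members, Smad1, Smad2, Smad3, Smad4, Smad5, Smad6, Smad7 and Smad9, were taken by symbol from the 31055 features counted in each of 16 droplet libraries of single cells, 1 library per mouse. The unit was the UMI, a tag that marks 1 captured RNA molecule. UMIs were summed per library within 4 groups of cells set by marker genes, none of them a Smad. Vascular smooth muscle cells (VSMCs) held at least 5 UMIs of Myh11, smooth muscle myosin, and more of it than of Dcn. Fibroblasts held at least 5 UMIs of the matrix gene Dcn and more of it than of Myh11. Endothelium held at least 2 UMIs of Pecam1 and Cdh5 together, and leukocytes at least 2 of Ptprc and Tyrobp together.

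All mice were 129S6/SvEv males that carried Myh11-CreER, a tamoxifen-inducible recombinase expressed in smooth muscle from the Y chromosome, and all received tamoxifen at 6 weeks of age, controls included. Smad3+/+ mice had unmodified Smad3 and Smad3SmKO mice had Smad3 flox/flox, to be deleted in the cells that express the recombinase. Aortas from the root to the left subclavian artery were taken 10 weeks after deletion (2 Smad3+/+ and 2 Smad3SmKO libraries, all of batch 4) or 18 weeks after (5 and 7 libraries). Batches 1 to 3 of 18 weeks were digested for 30 min, batches 5 and 6 and all 10-week libraries for 60 min, and batch 5 held only Smad3SmKO. By the labels a Myh11-GFP tracer was carried by both Smad3+/+ libraries of 10 weeks and neither Smad3SmKO one, by all 5 libraries of 18 weeks digested for 60 min, and by none digested for 30 min. Tracer and genotype cannot be told apart by label at 10 weeks, nor tracer and digestion at 18 weeks. Which exons the deletion removes is not given in the sources used here, and UMIs were read at the 3′ end of each RNA. The Smad3 counts were therefore no check of the deletion, and the term libraries labelled Smad3SmKO is used throughout. The study made its own check in aortas of such mice. It reported significantly lower Smad3 RNA, by qPCR relative to Myh11, and lower Smad3 protein by immunoblot.

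Smad proteins carry signals of the TGF-β superfamily from the cell surface to the nucleus. Receptors for TGF-β and activins phosphorylate Smad2 and Smad3, and receptors for bone morphogenetic proteins (BMPs) phosphorylate Smad1, Smad5 and Smad9. Both kinds join Smad4, the shared partner, and bind DNA. Smad6 and Smad7 inhibit the pathway and are themselves induced by it, Smad6 chiefly in the BMP branch and Smad7 in both, and loss-of-function mutations of SMAD3 cause familial thoracic aortic aneurysm.

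In the GRCm38 (mm10) annotation Smad3 (chr9:63646767-63757994) and Smad6 (chr9:63953076-64022059) both lay on the minus strand of chromosome 9. Smad1 lay at chr8:79338395-79399518 on the minus strand, Smad5 at chr13:56703010-56742377 on the plus strand and Smad9 at chr3:54755582-54801257 on the plus strand. Promoter windows from RefSeq (GRCm38.p6, 250 bases before to 50 after a transcript start) were available for 5 of the 8 members, in 7 windows. They were searched on both strands for 3 sequences that Smad complexes are known to bind. The palindrome GTCTAGAC was found in 0.213% of 32851 mouse windows and in 1 member, Smad6. GGCGCC, the GC-rich element of the BMP branch, was found in 11.9% of windows and in Smad9 and Smad5. CAGAC was found in 49.6% of windows and, among the members, in 1 of the 3 windows of Smad5. A match describes these letters and is no evidence of binding. The stretches of Smad6 and Smad9 are shown because these were the members that differed most between cell types below, with 100 bases before the start, 30 from it, and the match in capitals.
Smad6 (chr9:64022030-64022159, minus strand): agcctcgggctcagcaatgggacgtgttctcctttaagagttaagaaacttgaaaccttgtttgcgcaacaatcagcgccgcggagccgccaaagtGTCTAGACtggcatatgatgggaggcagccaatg
Smad9 (chr3:54755482-54755611, plus strand): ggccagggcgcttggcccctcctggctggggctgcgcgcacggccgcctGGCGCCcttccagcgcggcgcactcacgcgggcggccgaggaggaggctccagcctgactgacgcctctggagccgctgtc

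Smad2 (chr18:76241580-76310963, plus strand), Smad4 (chr18:73639009-73703780, minus strand) and Smad7 (chr18:75367529-75395935, plus strand) shared chromosome 18, and no sequence is shown for them.

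The libraries held 12539539 to 52843031 UMIs, and 50858 of 66349 barcodes were kept. The gates took 8648 VSMCs (20 to 1675 per library), 33954 fibroblasts (192 to 5132), 1226 endothelial cells (3 to 164) and 2946 leukocytes (10 to 834). A further 2442 kept cells (4.80%) passed more than 1 gate and were left out. Endothelium of Smad3SmKO 18 weeks replicate 7 held 3 cells and was dropped, so endothelium had 15 libraries and the other types 16. Levels are in CPM, the UMIs of a gene relative to all UMIs of the sum, scaled for the Smads and unscaled for markers of the 4 types. Markers outside the gates followed the labels, with a median summed level of 52200 CPM for 7 smooth muscle genes in VSMCs. For 6 endothelial genes it was 3084 CPM in endothelium against 1.64 CPM in VSMCs. Dcn reached a median of 106 CPM in leukocytes and 12480 CPM in fibroblasts. Before any result, 3 libraries of 18 weeks stood apart. Smad3+/+ replicates 4 and 5 shared 3507 barcodes (73.0% of the smaller). Smad3SmKO replicate 7 shared 388 with Smad3+/+ replicate 5 (49.2% of the smaller) and 226 with Smad3+/+ replicate 4 (28.7%). Smad3+/+ replicate 5 also shared 920 with Smad3SmKO replicate 5 (15.5% of the smaller), which stayed in when the 3 were left out, and no other pair shared more than 9.39%. The copies of a barcode shared by the first pair differed by a median of 25.2-fold in UMIs. Replicates 4 and 5 were labelled as carrying the GFP tracer and held 3 and 9 GFP UMIs, while both Smad3SmKO libraries of 10 weeks, labelled without it, held 247 and 188. The differences at 18 weeks with an unadjusted p under 0.05 are also given without the 3 libraries.

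**Figure D1:**
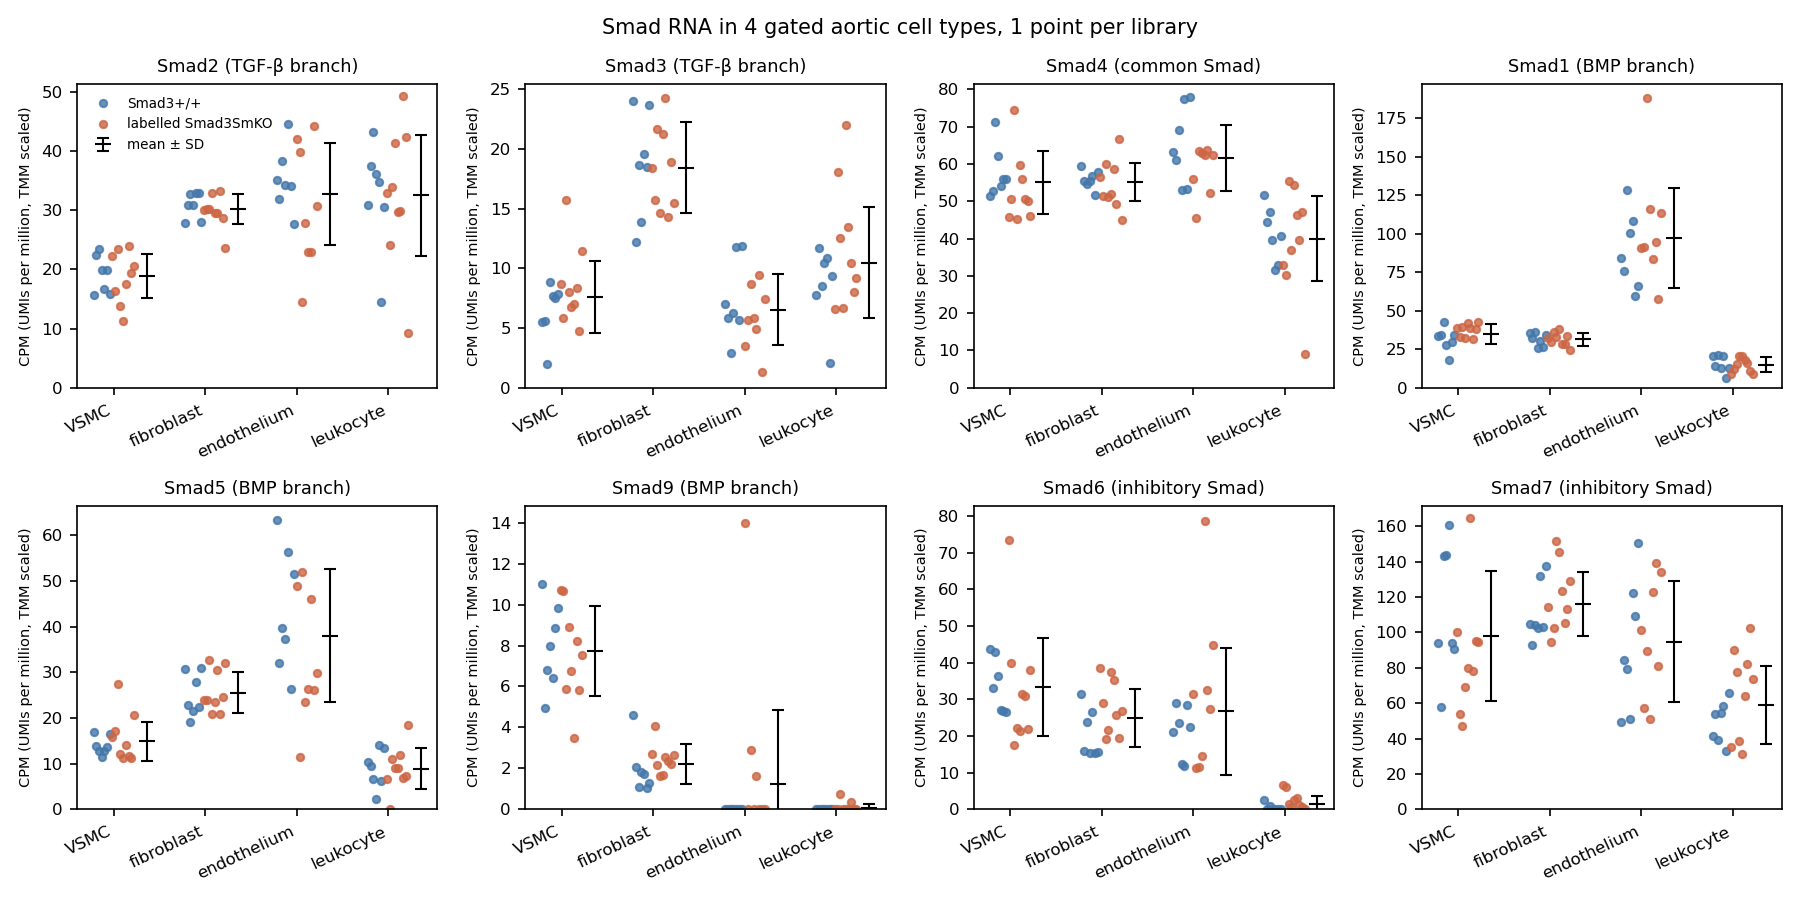
Level of each Smad gene (CPM, linear axis, 1 panel per gene with its own scale) in VSMCs, fibroblasts, endothelium and leukocytes, with 1 point per library and the mean ± SD beside the points. Smad9 stood highest in VSMCs (7.75 CPM on average), Smad1 in endothelium (97.2 CPM), Smad3 in fibroblasts (18.4 CPM), and Smad6 was close to 0 in leukocytes.

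Each of the 8 Smads differed between at least 1 pair of cell types, and the branches were spread unevenly. Because all 4 types came from the same mice, they were compared within libraries, by edgeR's quasi-likelihood test with library as a block and Benjamini-Hochberg adjustment over 13193 genes, a test that supplies every adjusted p below unless another is named. Of the 8 members, 5 passed an adjusted p of 0.05 between fibroblasts and VSMCs (65.6% of all genes did), 4 between endothelium and VSMCs (63.3%), 7 between leukocytes and VSMCs (78.3%), 4 between endothelium and fibroblasts (58.2%), and 7 in each comparison of leukocytes with fibroblasts (76.8%) and endothelium (66.5%). These shares were close to those of all genes, so it is the pattern of each member, not the number, that is described. Levels are compared between cell types for 1 gene and never between genes.

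Smad3, the TGF-β branch member that the study targeted, was higher in fibroblasts than in the targeted cell type and in the other types. It had a median of 7.60 CPM in VSMCs (lowest library 1.95, highest 15.7), 18.6 CPM in fibroblasts (12.2 to 24.2), 5.86 CPM in endothelium (1.30 to 11.9) and 9.87 CPM in leukocytes (2.06 to 22.0). Fibroblasts lay above VSMCs in 16 of 16 libraries, by 1.22 on the log2 scale (SE 0.12, adjusted p = 1.76e-12), and above endothelium in 15 of 15, by 1.46 (SE 0.19, adjusted p = 1.55e-09), and above leukocytes in 14 of 16, by 0.85 (SE 0.15, adjusted p = 1.03e-06). In the 7 Smad3+/+ libraries, where nothing was deleted, the VSMC values ran from 1.95 to 8.89 CPM and the fibroblast values from 12.2 to 24.0. VSMCs and endothelium could not be ordered (log2 difference -0.25, SE 0.21, adjusted p = 0.318), nor VSMCs and leukocytes (0.36, SE 0.17, adjusted p = 0.0509). The level in endothelium rested on 64 UMIs. When cells that passed more than 1 gate were kept, Smad3 was instead higher in endothelium than in VSMCs (0.60, adjusted p = 2.33e-04). Most of those cells, 1813 of the 2442, carried fibroblast and endothelial marker RNA together. Leukocytes exceeded endothelium in Smad3 by 0.61 (SE 0.23, adjusted p = 0.0159), a call that was lost without Smad3SmKO 18 weeks replicate 3 (0.28, adjusted p = 0.297), replicate 1 (0.52, adjusted p = 0.0518) or replicate 5 (0.51, adjusted p = 0.0533). It was kept for Smad3 without the 3 libraries that share barcodes (0.77, adjusted p = 0.00598).

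Smad2, the second effector of TGF-β, was lower in VSMCs than in the other types. Its median was 19.6 CPM in VSMCs (11.3 to 24.0), 30.3 CPM in fibroblasts (23.6 to 33.3), 34.2 CPM in endothelium (14.4 to 44.6) and 33.5 CPM in leukocytes (9.18 to 49.3). Fibroblasts exceeded VSMCs in 16 of 16 libraries by 0.66 (SE 0.085, adjusted p = 1.89e-09), endothelium in 14 of 15 by 0.74 (SE 0.11, adjusted p = 6.22e-08) and leukocytes in 14 of 16 by 0.85 (SE 0.10, adjusted p = 1.10e-10). Fibroblasts, endothelium and leukocytes passed no test between them in Smad2, with log2 differences between 0.083 and 0.19. Both effectors of TGF-β were thus higher in fibroblasts than in VSMCs in every library, Smad3 by a fitted 2.32-fold and Smad2 by 1.58-fold.

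The BMP branch members each had a different order. Smad1 was highest in endothelium, with a median of 91.2 CPM (57.4 to 187.7), against 34.2 CPM in VSMCs (18.0 to 42.9), 32.2 CPM in fibroblasts (24.7 to 38.1) and 14.8 CPM in leukocytes (6.18 to 21.2). Endothelium was higher than VSMCs by 1.42 (SE 0.11, adjusted p = 2.75e-17) and than fibroblasts by 1.61 (SE 0.099, adjusted p = 2.62e-20), each in 15 of 15 libraries. Of all genes, 63.3% and 58.2% passed these 2 tests. VSMCs and fibroblasts did not pass the threshold for Smad1 (-0.19, SE 0.092, adjusted p = 0.0635), but passed it without Smad3+/+ 18 weeks replicate 3 (-0.23, adjusted p = 0.02), Smad3SmKO 18 weeks replicate 1 (-0.20, adjusted p = 0.0431) or Smad3+/+ 10 weeks replicate 1 (-0.22, adjusted p = 0.0458). Smad5 had the order endothelium, fibroblasts, VSMCs, leukocytes, with medians of 37.4, 23.9, 13.7 and 9.09 CPM, and each neighbouring pair in that order passed the test. Its steps were 0.60 (SE 0.10) from fibroblasts to endothelium, 0.74 (SE 0.088) from VSMCs to fibroblasts, and 0.76 (SE 0.13) from leukocytes to VSMCs, with adjusted p-values of 1.10e-06, 1.96e-10 and 6.83e-07. The first of these shrank to 0.052 (adjusted p = 0.654) when cells of more than 1 gate were kept.

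Smad9, the third BMP effector, was highest in VSMCs and nearly undetected in endothelium and leukocytes. It had a median of 7.76 CPM there (3.51 to 11.0, 716 UMIs) and 2.12 CPM in fibroblasts (1.05 to 4.60, 619 UMIs), and VSMCs were higher in 16 of 16 libraries by 1.95 (SE 0.18, adjusted p = 9.95e-14). The summed smooth muscle genes had a median of 2074 CPM in fibroblasts and 149.4 CPM in leukocytes, and their part in the fibroblast Smad9 level was not tested. Endothelium of all 16 libraries, the dropped one included, held 6 Smad9 UMIs among 8605110, and 12 of the 15 libraries that were kept held none. Leukocytes held 2 among 20792187, and 14 of 16 libraries held none. Pooled over all 16 libraries, the rate in VSMCs was 12.2-fold that of endothelium (exact 95% interval 5.60 to 33.5, counting error only) and 88.7-fold that of leukocytes (24.5 to 734). Leukocytes and endothelium differed at an adjusted p of 0.0414, but 4 of the 6 endothelial UMIs came from Smad3SmKO 10 weeks replicate 1, and without it the adjusted p was 0.671. The summed smooth muscle genes in the endothelium of that library were at 4888 CPM, the highest of the 16 endothelial sums, whose median was 632 CPM, and their part in the Smad9 level was not tested. The call was also lost without Smad3+/+ 18 weeks replicate 1 (adjusted p = 0.0515) or Smad3SmKO 18 weeks replicate 3 (adjusted p = 0.0562).

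Smad4, which every branch needs, was lower in leukocytes and could not be ordered elsewhere. Its medians were 53.4 CPM in VSMCs (45.3 to 74.5), 55.4 CPM in fibroblasts (45.0 to 66.7), 62.4 CPM in endothelium (45.6 to 77.9) and 40.1 CPM in leukocytes (9.18 to 55.5). The first 3 types passed no test between them, with the fibroblast-VSMC difference at -0.020 (95% interval -0.15 to 0.11) and the endothelium-VSMC difference at 0.14 (-0.020 to 0.29). Leukocytes were lower than VSMCs by 0.44 (SE 0.076, adjusted p = 7.78e-07), in 15 of 16 libraries.

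The inhibitory Smads were both lowest in leukocytes. Smad6 had medians of 31.3 CPM in VSMCs (17.7 to 73.4), 24.7 CPM in fibroblasts (15.3 to 38.6) and 23.6 CPM in endothelium (11.4 to 78.8). Leukocytes held 18 Smad6 UMIs in all, at most 3 in a library, and 6 of 16 libraries held none, so the pooled VSMC rate was 43.1-fold higher (exact 95% interval 27.2 to 72.7, counting error only). VSMCs exceeded fibroblasts in 13 of 16 libraries by 0.53 (SE 0.13, adjusted p = 5.36e-04). VSMCs and endothelium were not separated (endothelium minus VSMC -0.25, SE 0.18, adjusted p = 0.209), yet without Smad3SmKO 18 weeks replicate 3, the endothelial library at 78.8 CPM, the difference was -0.54 (adjusted p = 0.004), and without replicate 6 it was -0.43 (adjusted p = 0.0332). In the Smad3+/+ libraries alone Smad6 was lower in endothelium too (-0.62, adjusted p = 0.0159). Smad7 had medians of 94.2 CPM in VSMCs (47.1 to 164.8), 109.4 CPM in fibroblasts (92.7 to 151.8), 89.5 CPM in endothelium (49.2 to 150.5) and 56.6 CPM in leukocytes (31.1 to 102.4). Leukocytes were lower than fibroblasts in Smad7 in 16 of 16 libraries, by 1.03 (SE 0.16, adjusted p = 7.17e-08). The other 3 types overlapped widely and passed no test between them. That of Smad7 between endothelium and fibroblasts (-0.29, adjusted p = 0.116) passed when 1 of 5 libraries was left out, namely Smad3+/+ 18 weeks replicate 4 or 5 (both -0.47, adjusted p = 0.0102 and 0.0105) or Smad3SmKO 18 weeks replicate 3, 4 or 5 (-0.43, -0.47 and -0.42, adjusted p = 0.0147, 0.0109 and 0.0207). That of Smad7 between fibroblasts and VSMCs (0.26, adjusted p = 0.106) passed without Smad3+/+ 18 weeks replicate 2 or 4 (both 0.32, adjusted p = 0.0414 and 0.0438) or Smad3SmKO 18 weeks replicate 4 (0.35, adjusted p = 0.0281).

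The Smad3SmKO label was then compared with Smad3+/+ in each cell type, to ask whether other Smads moved when Smad3 was targeted. The fit held batch as a term and a genotype effect for each time, 1 fit per cell type. Batch 5 held only Smad3SmKO libraries, replicates 5 and 7 of 18 weeks, so the batch term took up their level. They count in the means and ranges given below and in the spread. They add nothing to the fitted 18-week differences, also where VSMCs are compared with fibroblasts, except in fits without a batch term. No member passed an adjusted p of 0.05 at either time or in the difference between times, in any of the 4 types. In VSMCs the share of all 11711 genes that passed was 0% for 10 weeks, 0.0342% (0.0171% higher and 0.0171% lower) for 18 weeks and 0.00854% when the times were compared, and 0% in each of the 9 contrasts of the other types, so the members did not stand apart from the other genes in this. DESeq2 also called none. At an unadjusted p under 0.05 there was 1 of 8 members in VSMCs at 10 weeks (1.92% of all genes), 1 at 18 weeks (4.8%) and 1 between the times (2.58%), 1 of 8 in fibroblasts at 18 weeks (2.44%), and 2 of the 6 tested in endothelium at 18 weeks (3.6%). There was none in fibroblasts at 10 weeks (0.885%) and between the times (0.878%), in endothelium at 10 weeks (3.42%) and between the times (3.58%), or in leukocytes at 10 weeks (3.12%), at 18 weeks (1.57%) and between the times (3.46%). Smad3 and Smad9 in endothelium and Smad6 and Smad9 in leukocytes held too few UMIs to be tested. The median member difference in VSMCs was 0.12 at 10 weeks and -0.13 at 18 weeks, against -0.0071 and -0.012 over all genes.

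**Figure D2:**
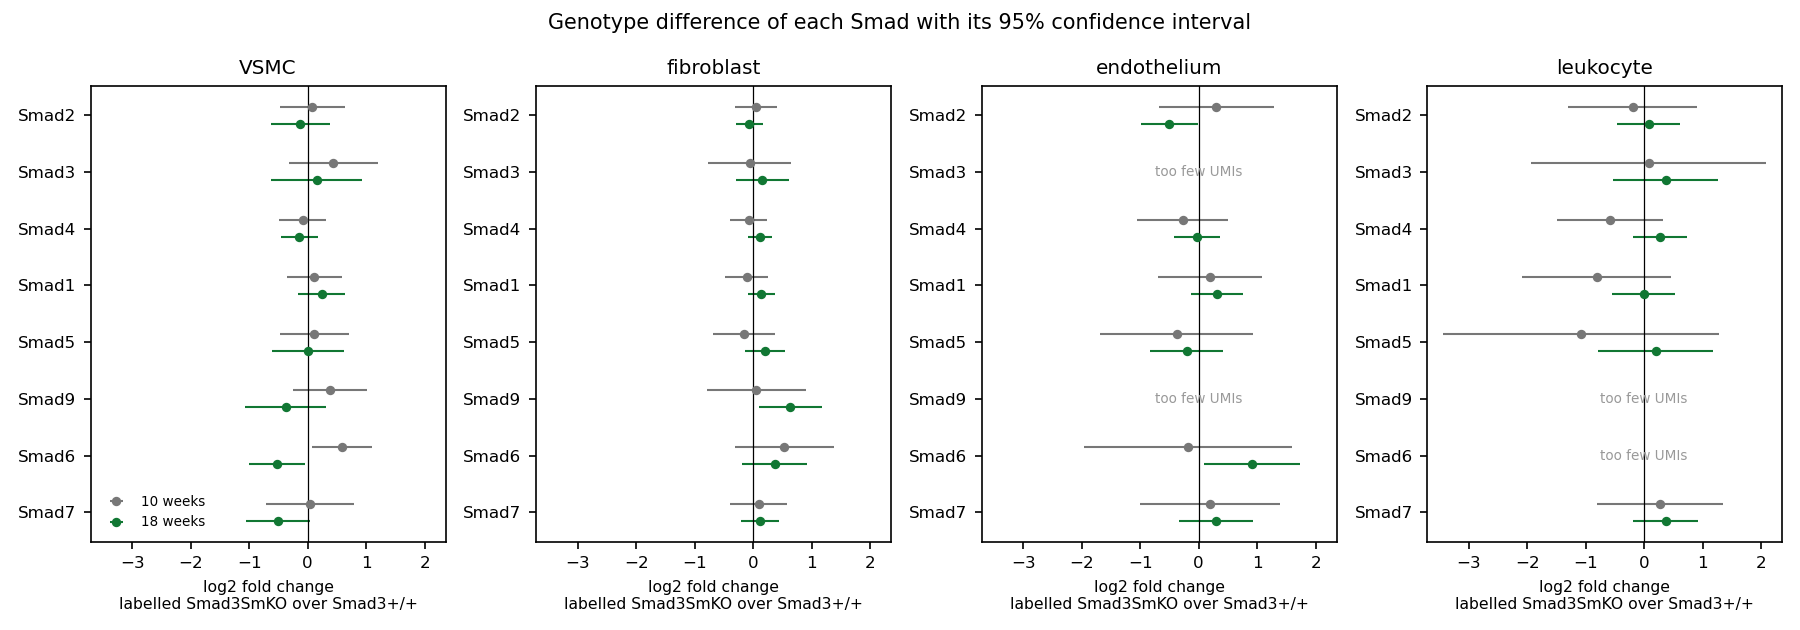
Fitted log2 difference of the libraries labelled Smad3SmKO from Smad3+/+ for each Smad gene (rows), in each of the 4 cell types (panels), at 10 and 18 weeks, with 95% intervals as bars and the line at 0 marking no difference. The Smad6 interval in VSMCs lies above 0 at 10 weeks (0.076 to 1.10) and below 0 at 18 weeks (-0.9996 to -0.050).

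No change of Smad3 RNA in the targeted cells passed the test, and the intervals were wide. At 10 weeks its VSMC level was 5.51 and 5.63 CPM in Smad3+/+ and 8.69 and 5.80 CPM under the Smad3SmKO label, both higher than both controls. Smad4 in the same VSMCs was also apart but lower, at 45.9 and 50.5 CPM against 51.3 and 52.8 CPM in Smad3+/+. In the 18-week libraries Smad3 had 1.95, 8.89, 7.72, 7.49 and 7.81 CPM in Smad3+/+ replicates 1 to 5, and its lowest, median and highest values under the Smad3SmKO label were 4.74, 8.00 and 15.7 CPM. The lowest control value rested on 2 UMIs, and the groups overlapped at 18 weeks. The fitted differences were 0.44 (95% interval -0.32 to 1.20) and 0.15 (-0.62 to 0.93). The second covers a fall of 0.62 and was not stable in sign. It was -0.22 without Smad3+/+ replicate 1, and -0.033 without replicate 3 and without Smad3SmKO replicate 1. In the 60 min libraries alone it was -0.66, from Smad3SmKO replicate 6 against Smad3+/+ replicates 4 and 5. Without Smad3SmKO replicate 6 it was 0.90, and without the 3 libraries that share barcodes 0.87. These last values both rest on batches 1 to 3 and are not separate checks. Within the 4 batches of 18 weeks that held both genotypes, it was 1.51, 0.94, -0.30 and -0.59. In fibroblasts of 18 weeks, not the cell type that the study targeted, Smad3 had 18.9 ± 3.50 CPM (SD, n = 5) in Smad3+/+ and 18.6 ± 3.93 CPM (SD, n = 7) under the label.

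Smad2, the remaining TGF-β effector, passed no test in VSMCs. At 10 weeks it had 15.7 and 22.5 CPM in Smad3+/+ and 22.3 and 16.3 CPM under the Smad3SmKO label. At 18 weeks the Smad3+/+ values ran from 15.8 to 23.4 (19.1 ± 3.02 CPM, SD, n = 5) and those under the label from 11.3 to 24.0 (18.6 ± 4.76 CPM, SD, n = 7), so that the 2 groups overlapped and the second spread wider on both sides. The difference of -0.12 had a 95% interval from -0.63 to 0.39. In endothelium of 18 weeks Smad2 was 35.8 ± 6.20 CPM (SD, n = 5) in Smad3+/+ and 27.2 ± 10.0 CPM (SD, n = 6) under the label, a difference of -0.50 (SE 0.23, unadjusted p = 0.0446, adjusted p = 1 by edgeR's quasi-likelihood test), with overlap and a lower value in 4 of 4 batches (-0.0091 to -1.56). In the 60 min libraries alone the Smad2 difference in endothelium was -0.015, from Smad3SmKO replicate 6 against Smad3+/+ replicates 4 and 5. It was -0.75 in the 30 min libraries alone and -0.76 (adjusted p = 0.699) without the 3 libraries that share barcodes. Those values both rest on batches 1 to 3. With cells of more than 1 gate kept the difference was -0.069.

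**Figure D3:**
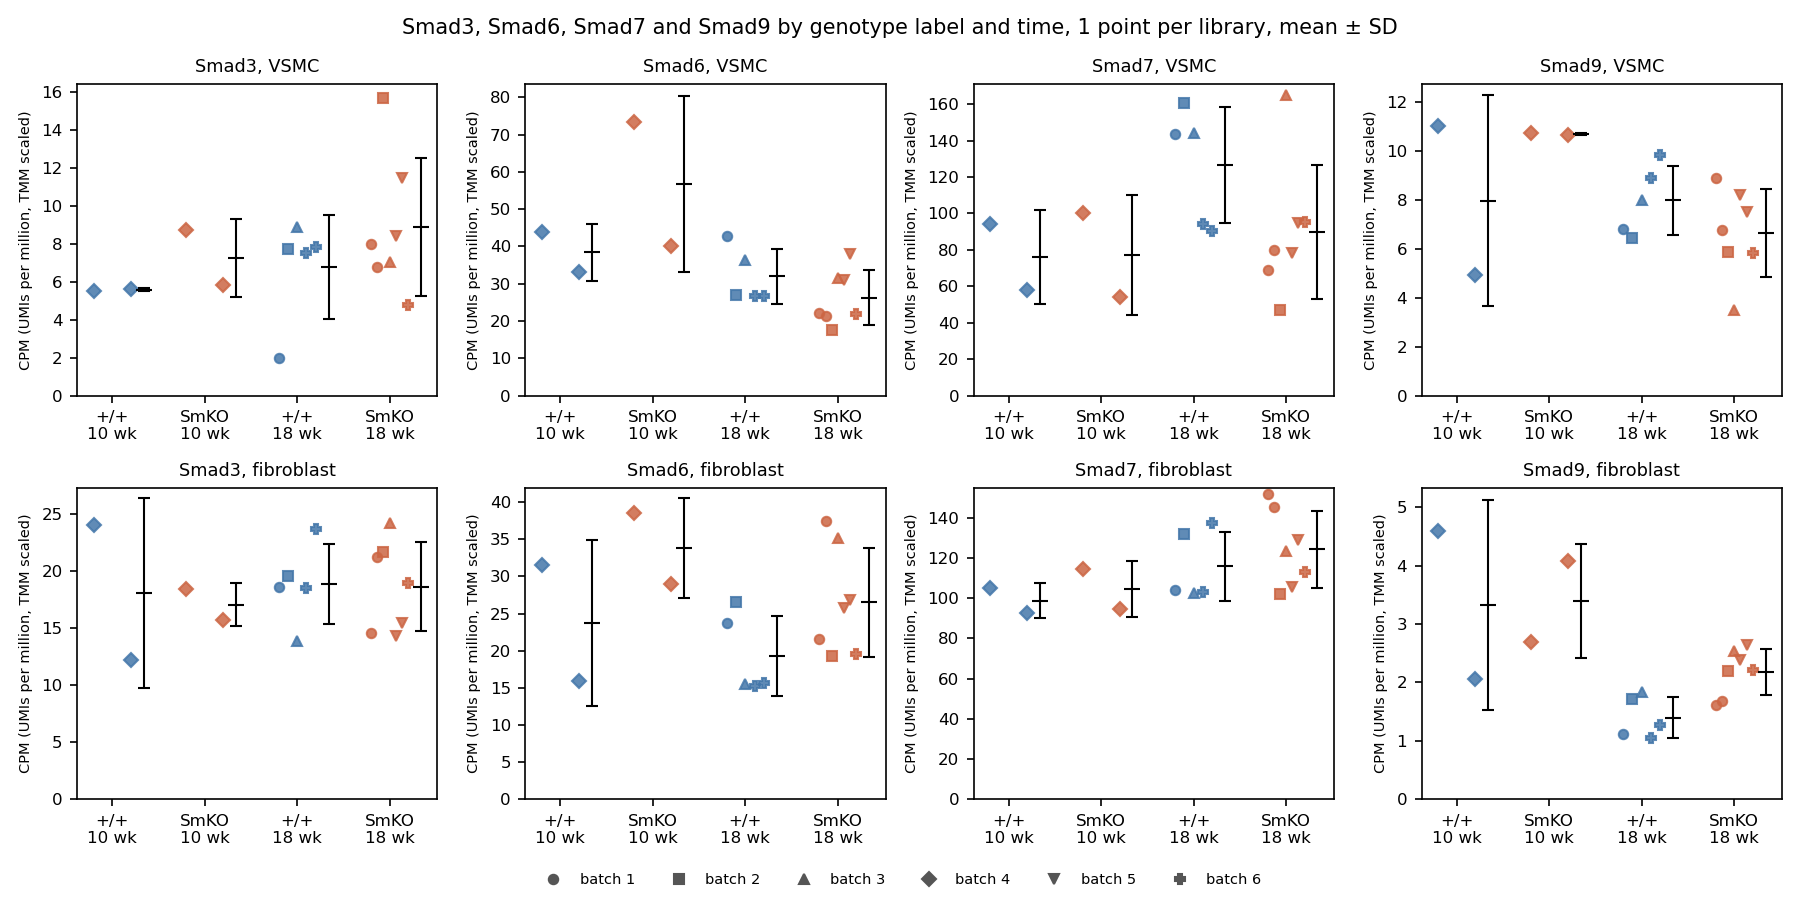
Levels (CPM) of Smad3, Smad6, Smad7 and Smad9 in VSMCs and in fibroblasts for the 4 groups of libraries, with 1 point per library, marker shapes for batches and the mean ± SD. In VSMCs at 18 weeks Smad6 averaged 32.0 CPM in Smad3+/+ and 26.3 CPM under the Smad3SmKO label, and in fibroblasts Smad9 averaged 1.40 and 2.18 CPM.

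Smad6 was the member whose genotype differences reached an unadjusted p under 0.05 most often. Those in VSMCs pointed in opposite directions at the 2 times. The one in endothelium of 18 weeks, given further on, pointed the other way from that in VSMCs of 18 weeks. In VSMCs of 10 weeks Smad6 had 43.8 and 33.1 CPM in Smad3+/+ and 73.4 and 40.1 CPM under the Smad3SmKO label, so the pairs overlapped and 1 library stood high. The difference was 0.59 (SE 0.24, unadjusted p = 0.0269). At 18 weeks the Smad3+/+ values were 42.9, 36.4, 27.0, 26.8 and 26.6 CPM for replicates 1 to 5, and those under the label ran from 17.7 to 38.1 with a median of 22.2 CPM. The 2 groups overlapped, 4 of the 7 libraries lay below every control, and the difference was -0.52 (SE 0.22, unadjusted p = 0.0323). Smad6 was lower within 4 of 4 batches, by values between -0.20 and -0.94. Other pairs of a member and a type also kept 1 sign in 4 of 4 batches. They were Smad2 in fibroblasts and endothelium (lower), Smad3 and Smad6 in leukocytes and Smad9 in fibroblasts (higher). In VSMCs of 18 weeks Smad4 and Smad7 also had 4 of 7 libraries below every control, and 1 above. No share over all genes is given for such counts, here or elsewhere. The Smad6 change between the times in VSMCs was -1.11 (SE 0.33, unadjusted p = 0.00377). All 3 had an adjusted p of 1 by edgeR's quasi-likelihood test. Without the 3 libraries that share barcodes, the 18-week difference was -0.74 (adjusted p = 0.708) and the change between the times -1.33 (adjusted p = 0.973), and without a batch term it was -0.19 (adjusted p = 1). In the same VSMCs the summed level of 4 pericyte genes ran from 121.3 to 379.3 CPM in Smad3+/+ of 18 weeks (median 145.3) and from 198.4 to 1335 CPM under the label (median 472.5), and that of 3 heart muscle genes from 175.9 to 334.4 and from 43.1 to 524.8 CPM (medians 305.2 and 134.1). Rgs5 made most of the first sum (98.6 to 1252 CPM) and Tnnt2 most of the second, while the median of Vtn was 0.103 CPM, that of Myh6 0.965 CPM and that of Myl3 0. The mix of VSMC subsets, described further on, varied too. Among the 30 min libraries the cells with Notch3 and Enpep against those with Ptprz1 and Tes were 32 to 24, 78 to 46 and 30 to 6 in Smad3+/+ replicates 1 to 3, and 13 to 11, 38 to 63, 9 to 25 and 11 to 3 in Smad3SmKO replicates 1 to 4. The part of these markers and subsets in the Smad6 result was not tested.

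Smad7 in VSMCs was uneven across batches. At 18 weeks its Smad3+/+ values were 143.4, 144.0, 160.8, 94.2 and 90.6 CPM, and under the Smad3SmKO label its lowest, median and highest values were 47.1, 80.1 and 164.8 CPM. The highest came from a library with 20 VSMCs. The 2 groups overlapped. The 3 high controls were those digested for 30 min and the 2 low ones those digested for 60 min. The high ones held more cells with Notch3 and Enpep than with Ptprz1 and Tes, and the low ones fewer. The part of this mix in the Smad7 levels was not tested. The difference was -0.51 (SE 0.26, unadjusted p = 0.0644, adjusted p = 1 by edgeR's quasi-likelihood test). It was -0.78 in the 30 min libraries alone and -0.82 without the 3 libraries that share barcodes, both resting on batches 1 to 3. In the 60 min libraries alone it was 0.073, from Smad3SmKO replicate 6 against Smad3+/+ replicates 4 and 5. At 10 weeks Smad7 had 94.3 and 57.9 CPM in Smad3+/+ and 100.3 and 53.9 CPM under the label, a difference of 0.047 (95% interval -0.71 to 0.80).

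Smad9 had low counts in fibroblasts and passed the test in neither fibroblasts nor VSMCs. In fibroblasts of 18 weeks it had 1.11, 1.83, 1.72, 1.05 and 1.27 CPM in Smad3+/+ (30 to 62 UMIs each) and between 1.62 and 2.64 CPM under the Smad3SmKO label, with a median of 2.21. Most of the second group, 5 of 7, lay above every control. The difference was 0.64 (SE 0.25, unadjusted p = 0.0251, adjusted p = 0.9997 by edgeR's quasi-likelihood test), and 0.49 without the 3 libraries that share barcodes. Smad9 was higher in 4 of 4 batches. No share over all genes is given for the 5 of 7 or the 4 of 4. In VSMCs of 18 weeks Smad9 was 8.00 ± 1.41 CPM (SD, n = 5) and 6.66 ± 1.79 CPM (SD, n = 7), a difference of -0.38 (SE 0.33).

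In endothelium of 18 weeks Smad6 was 19.7 ± 7.34 CPM (SD, n = 5) in Smad3+/+ and 34.9 ± 24.7 CPM (SD, n = 6) under the label, with a difference of 0.90 (SE 0.38, unadjusted p = 0.0329, adjusted p = 1 by edgeR's quasi-likelihood test). The value of 78.8 CPM in Smad3SmKO replicate 3 (48 UMIs) lay far above the others, which ran from 11.6 to 44.7 CPM, and without it the difference was 0.56. Without the 3 libraries that share barcodes the Smad6 difference in endothelium was 0.98 (adjusted p = 0.874). The pericyte genes in endothelium summed to between 83.9 and 537.7 CPM in Smad3+/+ and between 84.9 and 1147 CPM under the label, and their part in the result was not tested. Smad1, Smad4 and Smad5 gave no difference at an unadjusted p under 0.05 in any type at either time. Their VSMC differences at 18 weeks were 0.24 (95% interval -0.16 to 0.64), -0.14 (-0.45 to 0.17) and 0.0029 (-0.61 to 0.62), so a 2-fold change of Smad1, Smad4 or Smad5 (1 on the log2 scale) lay outside these intervals.

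The recombinase is driven by Myh11, so fibroblasts served as the type not targeted, and the genotype effects of the 2 types were compared within libraries. Fibroblasts were not free of GFP. They held 16, 22 and 34 GFP UMIs in Smad3SmKO 18 weeks replicates 5 to 7, against 332, 55 and 125 in VSMCs. In replicate 7 the 34 were among 4637046 UMIs and the 125 among 8430220. At 10 weeks libraries held 8 to 18 in fibroblasts and 125 to 276 in VSMCs. The source of the fibroblast GFP was not tested. No member passed at 10 or 18 weeks, nor did any of 14196 genes (0% at both times). At 18 weeks 3 of 8 members had an unadjusted p under 0.05 (4.3% of all genes; 1.56% at 10 weeks, with no member), all with a lower effect in VSMCs. By edgeR's quasi-likelihood test the difference was -0.89 (SE 0.23, unadjusted p = 0.00183, adjusted p = 1) for Smad6, -1.10 (SE 0.35, unadjusted p = 0.00694, adjusted p = 1) for Smad9 and -0.68 (SE 0.26, unadjusted p = 0.0180, adjusted p = 1) for Smad7. The sign of the Smad6 difference held in every one of 25 alternative fits (-0.75 to -1.38). With no filter on low counts Smad6 and Smad7 passed (adjusted p = 0.016 and 0.0264), and without the 3 libraries that share barcodes Smad7 passed (-1.08, adjusted p = 0.00579) while Smad6 (-1.06, adjusted p = 0.103) and Smad9 (-0.61, adjusted p = 0.978) did not. At 10 weeks the 8 differences lay between -0.079 and 0.50, none with an unadjusted p under 0.05.

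Genes around the Smads gave the same picture with 1 exception. Among 7 TGF-β and activin receptors, 6 BMP receptors, 18 Smad anchors, ubiquitin ligases, deubiquitinases and phosphatases, 8 nuclear partners, 6 TGF-β targets and 5 BMP targets, the only gene past an adjusted p of 0.05 for the Smad3SmKO label in any type was the TGF-β target Pmepa1, which encodes an inhibitor that keeps Smad2 and Smad3 from the receptor. In VSMCs of 18 weeks Pmepa1 had between 779.7 and 1524 CPM in Smad3+/+ (1237 ± 317.5, SD, n = 5) and between 421.7 and 823.8 CPM under the label (664.1 ± 169.9, SD, n = 7), and only the lowest control overlapped. The difference was -1.01 (SE 0.14, adjusted p = 0.00872). It kept its sign when each library was left out (-0.92 to -1.10). Its adjusted p rose to between 0.0542 and 0.0854 without Smad3+/+ replicate 1, 2 or 3 or Smad3SmKO replicate 1 or 4, and to 0.328 without a batch term. Pmepa1 passed without the 3 libraries that share barcodes (-1.12, adjusted p = 0.00929). The 60 min libraries alone set only Smad3SmKO replicate 6 (823.8 CPM) against Smad3+/+ replicates 4 and 5 (1446 and 1401 CPM), and no adjusted p is given for them. At 10 weeks both libraries under the label (771.9 and 840.4 CPM) lay below both controls (1163 and 1572 CPM), at an adjusted p of 1.

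The same lists differed between endothelium and VSMCs, where Smad1 and Smad5 were higher in endothelium. Of all genes, 33% were higher in endothelium and 30.3% lower, and with lists this short nothing particular to a list is read from its count. Of the 6 BMP receptors, 4 were higher in endothelium and 2 lower, led by Eng, an endothelial co-receptor of BMP9 (3.59, SE 0.15), and Bmpr1b (-3.15, SE 0.29). Of the 6 TGF-β and activin receptors tested, 3 were higher and 1 lower, led by the type II receptor Tgfbr2 (1.55, SE 0.13) and the type I receptor Tgfbr1 (-1.55, SE 0.16). Among 18 anchors, ligases and phosphatases 3 were higher and 6 lower, led by the ligases Nedd4l (1.80, SE 0.20) and Wwp2 (-2.64, SE 0.18), and among 8 nuclear partners 3 were higher and 3 lower, led by the co-repressor Tgif2 (4.28, SE 0.50) and the repressor Zeb2 (-1.35, SE 0.17). The TGF-β targets were mostly lower in endothelium, 5 of 6, with Ctgf at -2.44 (SE 0.28) and Tgfbi as the higher one at 3.39 (SE 0.34). Of the 5 BMP targets, 1 was higher (Id1 at 1.09, SE 0.21) and 2 lower (Id2 at -2.04, SE 0.20). The medians of the lists ran from -2.13 for TGF-β targets to 0.60 for BMP receptors, against 0.030 over all genes.

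VSMCs differ along the aorta, and the study stained Notch3 and Enpep, and Ptprz1 and Tes, to follow this. Gated VSMCs with at least 2 UMIs of Notch3 and Enpep together and more of these than of Ptprz1 and Tes (476 cells) were compared with the converse (4383 cells) within the 13 libraries that held 10 cells of each. Of the 7 members tested, 2 differed, Smad6 and Smad7, where 21.4% of 8923 genes did. That share was close, so nothing about the family is read from the count. Smad7 had 53.7 to 181.5 CPM in Notch3-Enpep cells (114.4 ± 34.4, SD, n = 13) and 34.8 to 143.1 CPM in Ptprz1-Tes cells (75.3 ± 32.0, SD, n = 13). It was higher in Notch3-Enpep cells in 12 of 13 libraries, and Smad3+/+ 18 weeks replicate 2 was the exception (138.9 and 143.1 CPM). The difference, Ptprz1-Tes minus Notch3-Enpep, was -0.59 (SE 0.11, adjusted p = 1.02e-04) and stayed past the threshold in each of 26 alternative fits (-0.52 to -0.68), among them those that left out each of the 13 libraries. Smad6 had 39.6 ± 25.9 CPM in Notch3-Enpep cells and 30.3 ± 14.4 CPM in Ptprz1-Tes cells (SD, n = 13 each), was higher in the former in 9 of 13 libraries, and differed by -0.45 (SE 0.14, adjusted p = 0.0165). Smad6 did not pass without the 3 libraries that share barcodes (-0.46, adjusted p = 0.0763), in Smad3+/+ libraries alone (-0.42, adjusted p = 0.221) or with no filter on low counts (-0.39, adjusted p = 0.0523).

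**Figure D4:**
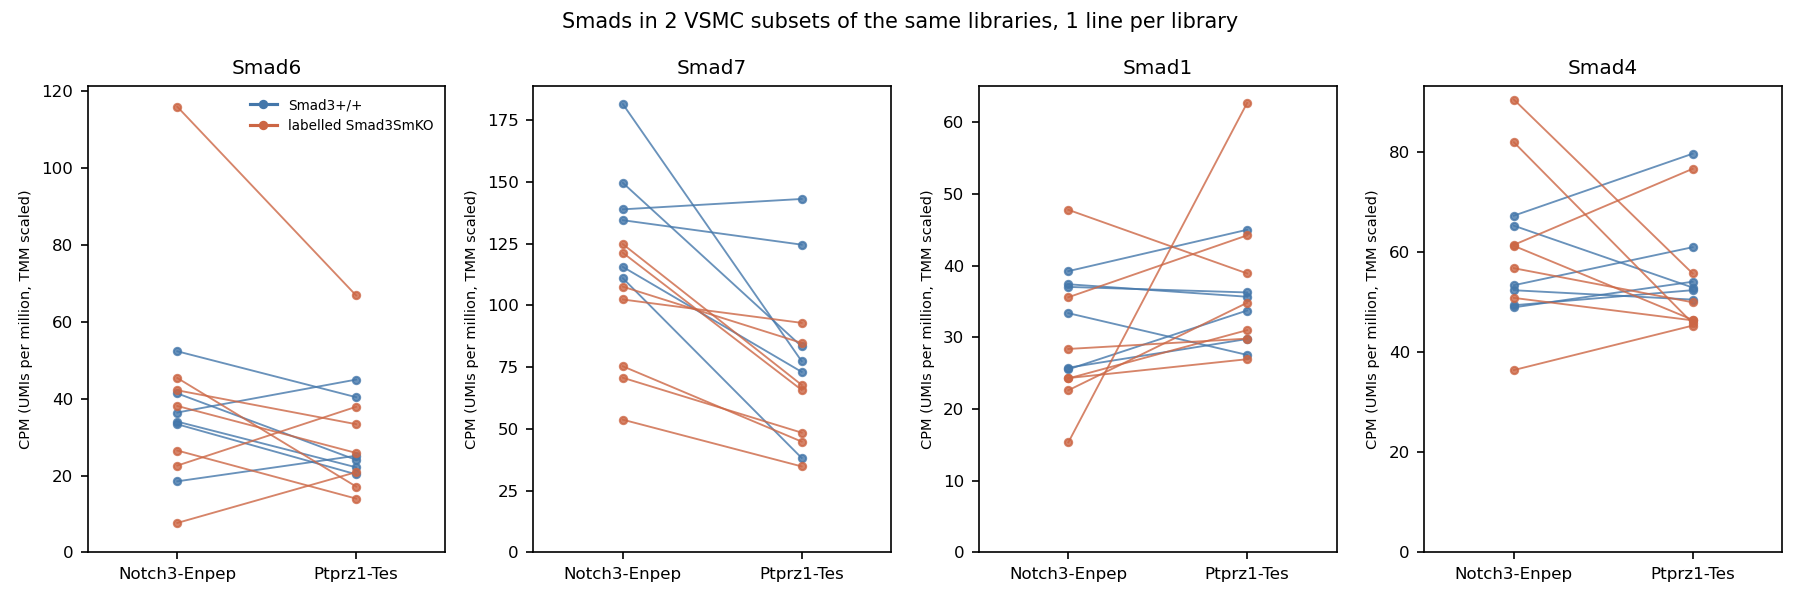
Levels (CPM) of Smad6, Smad7, Smad1 and Smad4 in Notch3-Enpep VSMCs and Ptprz1-Tes VSMCs, with 1 line per library joining its 2 values. The Smad7 lines fall from left to right in 12 of 13 libraries, the Smad6 lines in 9, the Smad4 lines in 7 and the Smad1 lines in 4.

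The other members tested did not pass the threshold between these VSMCs, some of them on few UMIs. In Notch3-Enpep cells Smad2 had 127 UMIs and Smad5 74, against 220 for Smad6. Smad3 had 7.04 ± 6.52 CPM in Notch3-Enpep and 6.75 ± 3.62 CPM in Ptprz1-Tes cells, on 41 and 342 UMIs, a difference of 0.0058 (95% interval -0.61 to 0.63). Smad1 (0.24, SE 0.13), Smad5 (0.24, SE 0.23), Smad4 (-0.058, SE 0.11) and Smad2 (-0.26, SE 0.20) did not pass. Smad9 had 4.58 ± 5.54 CPM in Notch3-Enpep cells (30 UMIs) and 8.51 ± 3.69 CPM in Ptprz1-Tes cells (418 UMIs; SD, n = 13 each), was higher in the former in 3 of 13 libraries, and was not tested. Of 5 BMP targets, 3 were lower in Ptprz1-Tes cells, the helix-loop-helix inhibitors Id1 (-1.01, SE 0.11), Id2 (-0.94, SE 0.094) and Id3 (-1.06, SE 0.11), the side on which Smad6 and Smad7 were lower. The TGF-β targets Pmepa1 (0.79, SE 0.069), Ctgf (0.62, SE 0.10), Col1a1 (0.58, SE 0.14) and Ltbp2 (1.55, SE 0.29) were higher there. These target genes were named after their values were seen. The summed pericyte genes, all 4 detected, ran from 37.0 to 2854 CPM in Notch3-Enpep cells and from 126.6 to 612.4 CPM in Ptprz1-Tes cells (medians 317.6 and 287), and were higher in the former in 5 of 13 libraries. The summed fibroblast genes had medians of 495.8 and 792.8 CPM and were higher in Notch3-Enpep cells in 2 of 13 libraries. Col1a1 is in this list as well as among the TGF-β targets. It made most of the fibroblast sum over all VSMCs (median 529.1 CPM, with 646.2 CPM for the sum). The part of the pericyte and fibroblast genes in the result was not tested.

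Digestion for 60 or 30 min was compared at 18 weeks with genotype as a term. No member passed in VSMCs (3.3% of all genes did), fibroblasts (1.63%), endothelium (1.95%) or leukocytes (3.72%), and DESeq2 called none. At an unadjusted p under 0.05 there was none of 8 members in VSMCs (17.8% of genes) and fibroblasts (19.2%), and 1 of 6, Smad1, in endothelium (15.2%) and leukocytes (19.6%). In endothelium Smad1 was 117.0 ± 34.3 CPM in 7 libraries of 30 min and 74.2 ± 26.6 CPM in 4 of 60 min, a difference of -0.66 (SE 0.25, unadjusted p = 0.0207, adjusted p = 0.226 by edgeR's quasi-likelihood test). In leukocytes Smad1 was 18.5 ± 3.24 CPM in 7 libraries and 11.1 ± 3.79 CPM in 5, a difference of -0.68 (SE 0.24, unadjusted p = 0.0129, adjusted p = 0.128). Digestion time and batch cannot be told apart in these libraries.

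Over the 63 sums of a library and a cell type, the genes whose log2 level followed each member most closely were found among 11717 genes. Points share libraries, depth and cell type, so the correlations are descriptions. Smad1 went with the endothelial genes Flt1, a VEGF receptor (r = 0.92), Timp4 (0.92) and Ephb4 (0.92), and Smad5 with Lrp5 (0.88), Hdac7 (0.81) and Ptprg (0.81). Smad6 went with Tead1, a DNA-binding partner of Yap (r = 0.93), Rbfox2 (0.92) and the basement membrane collagen Col4a1 (0.91), and Smad9 with Nrtn (0.91), Syde2 (0.91) and Pnck (0.90). The TGF-β effectors had looser companions, Bmper (r = 0.69), S1pr2 (0.69) and Gsta3 (0.69) for Smad3 and Cd47 (0.74), Cd1d1 (0.73) and Fkbp1b (0.71) for Smad2. Smad4 went with BC005561 (r = 0.86), Mprip (0.84) and Brd3 (0.84), and Smad7 with Farp1 (0.74), Adgra2 (0.70) and Zdhhc8 (0.68). Among the members themselves the highest correlations were between Smad1 and Smad5 (r = 0.71), the pair that rose in endothelium, and between Smad1 and Smad4 (r = 0.62), and the lowest was between Smad2 and Smad9 (r = -0.53).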

How the data were processed

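Thoracic aortic cells sorted as nucleated and viable were sequenced on the 10x 3′ v3 platform. The deposited values are raw UMI counts, one matrix of genes by barcodes per library. The authors' tool was Cell Ranger (version 6 per the submitters' notes, 4.0.0 per the matrix headers) with mm10 and GFP, and the counts carry no normalization. A feature named Sm3_intact held 0 UMIs. Barcodes between 600 and 6000 genes, between 2000 and 50000 UMIs and below a mitochondrial share of 25% were kept. No doublet caller was run, and cells of more than 1 gate were left out. UMIs were summed per library and type where at least 10 cells were present. Each library is 1 mouse. In the genotype and digestion fits p-values measure the spread between mice, and both times of the genotype fits shared 1 estimate of it. In fits with library as a block they measure how differences within a library vary from mouse to mouse. Counts were fitted in edgeR 4.0.16 (R 4.3.3, limma 3.58.1) by glmQLFit and glmQLFTest after filterByExpr and TMM scaling, with Benjamini-Hochberg adjustment over all genes of a contrast and 95% intervals from the fit. Genotype fits held batch and a genotype term per time, type and subset fits held library as a block, and the comparison of VSMCs with fibroblasts held both. CPM of the Smads and Pmepa1 in the 4 types were scaled by TMM over all 63 sums. CPM in the 2 VSMC subsets, markers included, were scaled by TMM over the subset sums alone. Marker CPM in the 4 types were not scaled. DESeq2 1.42.0 was an alternative. The fits were tested on simulated counts. Sums and gates were made in Python 3.11.15 (numpy 2.4.6, pandas 2.3.3, scipy 1.17.1).

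The members, gene lists, gates and tests were chosen with earlier results of these data known. All 8 members are named in every result, list genes past an adjusted p of 0.05 for genotype, the highest and lowest list gene between endothelium and VSMCs, and the 3 genes with the highest Pearson r of log2(CPM + 1) among genes with at least 1000 UMIs. Ctgf is the files' symbol for Ccn2. Reads, exons and the study's own cluster labels were not used here. In bulk sums of a gated type, RNA taken up from other cells is counted too. The result of 1 TGF-β target between VSMC subsets is not reported here.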

Additional observations from a re-analysis of the deposited data

Results flagged for a closer look

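In 5 of the 58 groups of 4 to 10 libraries with at least 20 UMIs of a member, 1 library lay far from the rest, and chance alone gives about 1 in 20. In VSMCs of Smad3+/+ 18 weeks, replicate 1 had 1.95 CPM of Smad3 (2 UMIs in 93 cells), and the next value was 7.49 CPM. In VSMCs labelled Smad3SmKO of 18 weeks, replicate 4 had 164.8 CPM of Smad7 (47 UMIs in 20 cells), above the next value of 95.2 CPM. In endothelium labelled Smad3SmKO of 18 weeks, replicate 5 had 52.1 CPM of Smad4 (40 UMIs), below the next value of 62.4 CPM. In leukocytes of Smad3+/+ 18 weeks, replicate 4 had 2.06 CPM of Smad3 on 1 UMI, with 8.48 CPM next. In leukocytes labelled Smad3SmKO of 18 weeks, replicate 7 had 9.18 CPM of Smad4 on 1 UMI in 10 cells, with 37.1 CPM next.

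Of 44 tests of a difference between 2 genotype effects, 4 had an unadjusted p under 0.05 and none an adjusted one by edgeR. The Smad6 effect in VSMCs was lower at 18 than at 10 weeks by 1.11 (log2 -1.11, unadjusted p = 0.00377). At 18 weeks the effect in VSMCs was lower than that in fibroblasts for Smad9 (-1.10, unadjusted p = 0.00694), Smad6 (-0.89, unadjusted p = 0.00183) and Smad7 (-0.68, unadjusted p = 0.0180).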

How the results depend on the processing

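Of 5523 values of the members and Pmepa1 under alternatives, 5148 kept direction and side of the threshold, 302 changed sign without passing the threshold, 40 gained and 28 lost a call, and 5 reversed. The reversals were Smad3 endothelium minus VSMC (0.60), Smad3 leukocyte minus endothelium (-0.15) and Pmepa1 leukocyte minus endothelium (-0.71) with cells of more than 1 gate kept, and Smad9 leukocyte minus endothelium with stricter gates (0.0083) and in Smad3+/+ libraries alone (0.018). For the VSMC-fibroblast difference at 18 weeks 2 members passed with no filter and 1 without the 3 libraries that share barcodes, against 0. Between VSMC subsets 1 passed under each of 3 alternatives (no filter, Smad3+/+ alone, without the 3 libraries), against 2. Between endothelium and fibroblasts 2 passed with cells of more than 1 gate kept, against 4. With each library left out, member counts ran from 4 to 5 for endothelium minus VSMC and endothelium minus fibroblast, 5 to 6 for fibroblast minus VSMC, 7 to 8 for leukocyte minus VSMC and 5 to 7 for leukocyte minus endothelium, and did not change elsewhere. Over all genes, VSMC calls at 18 weeks were 4, 105 with no filter and 1 with sums of at least 30 cells, those at 10 weeks 0 and 48, those of the difference 1 and 63, and those between VSMCs and fibroblasts at 18 weeks 0 and 104, each pair without and with the low genes. Subset calls were 1907, and 1070 in Smad3+/+ alone. The low genes also brought 13 to 81 calls to the genotype contrasts of endothelium and leukocytes and 29 to the VSMC-fibroblast difference at 10 weeks, against 0. Endothelium minus fibroblast called 7680 genes, and 4869 with cells of more than 1 gate kept. Digestion calls were 340 in VSMCs (969 with the low genes, 5 without the 3 libraries) and 151 in endothelium (584 and 5). In fibroblasts (1.63% of 14249 genes) they were 1161 by DESeq2 and 41 without the 3 libraries, and in leukocytes (3.72% of 8541 genes) 872 with the low genes and 185 without the 3 libraries. Except where said, the cause was not tested. No paired analysis was possible because replicate numbers follow accession order and mark no shared mouse or day. Endothelium and leukocyte sums limit precision, and so do VSMC sums of 20 to 253 cells in batches 1 to 3.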
